A study of Mus musculus with 8 samples.

Results

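The comparison described here asked which RNAs differed between granulosa cells with and without the nuclear receptor LRH-1 (encoded by Nr5a2) once the ovulatory signal had been given. It rests on 6 of the 12 RNA libraries of the series, 3 from control mice (CTL) and 3 from conditional knockout mice (cKO), all taken 4 h after human chorionic gonadotropin (hCG), with all 110473 transcripts of each table. Of 32944 transcripts with enough counts to test, 3 differed past the threshold, 1 higher and 2 lower in cKO, and in each of them 1 library held nearly all the signal. Such dominance was common: in 60.9% of all transcripts tested, the highest library of the higher group held over 90% of that group's signal. Libraries of the same genotype differed widely from each other, with Pearson's r of 0.228 to 0.291 across the more abundant transcripts.

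LRH-1 is an orphan nuclear receptor that binds DNA as a monomer and activates genes of steroid and cholesterol metabolism. In the ovary it is made by granulosa cells, the somatic cells that surround and nourish the oocyte. The surge of luteinising hormone, for which hCG stands in, turns these cells from oestrogen production towards progesterone production and starts the release of the egg, and mice without LRH-1 in granulosa cells are known not to ovulate.

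The CTL mice were Nr5a2 f/f Amhr2 Cre/- and the cKO mice Nr5a2 f/f Amhr2 Cre/+, so both carried floxed Nr5a2 and differed in the Cre recombinase. Amhr2 drives this Cre in granulosa cells from primary follicles onward, and any other cell that uses Amhr2 can lose the gene too. All mice were C57BL/6 females aged 22 to 25 days that received 5 IU of equine chorionic gonadotropin. The mice compared here received 5 IU of hCG 44 h later. The RNA libraries called before hCG below, which also enter the model, are labelled 0 h after hCG. Granulosa cells were released by puncturing the ovary, and libraries were made from 300 ng of total RNA. The labels state 3 replicates per group and do not say whether these were separate animals or pools, so p-values here reflect the library-to-library spread, which may be technical. The tables name transcripts by Ensembl identifier alone, and none of these was paired with a gene in the tables used here. The level of Nr5a2, the granulosa cell markers and the steroidogenic and ovulatory genes were therefore not analysed here, and results are given per transcript.

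The 6 libraries held between 12517554 and 23753060 estimated counts each. They also differed in how many transcripts they held when brought to an equal depth. At the depth of the shallowest of the 6, the CTL libraries held 20235, 10371 and 25699 transcripts (replicates 1, 2 and 3). The cKO libraries held 14988, 16689 and 17143, so all 3 lay inside the range of the CTL libraries. The means were 18768 ± 7769 in CTL and 16274 ± 1136 in cKO (SD, n = 3; exact permutation p = 0.7, two-sided, adjusted p = 0.9 over 4 library measures), where 3 libraries against 3 cannot give a p below 0.1. The effective number of transcripts, a diversity measure that weights each transcript by its share of the counts, was 2157, 1775 and 3769 in CTL and 1281, 2700 and 2619 in cKO. Here too the groups overlapped (means 2567 ± 1058 and 2200 ± 797, SD, n = 3; exact permutation p = 0.7, adjusted p = 0.9). The 100 most abundant transcripts of a library took 34.5%, 28.7% and 25.1% of the counts in CTL, against 39.1%, 25.4% and 27.2% in the cKO libraries (p = 0.8 by the exact permutation test, adjusted p = 0.9). The mean transcript length weighted by counts was 3421 ± 179 bases in CTL and 3432 ± 402 bases in cKO (SD, n = 3; p = 0.9 by the exact permutation test, adjusted p = 0.9). None of these 4 measures differed between CTL and cKO beyond the spread of the libraries, which was widest in the CTL detection counts. In bulk RNA, fewer cells of a type and less RNA per cell cannot be told apart.

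**Figure D1:**
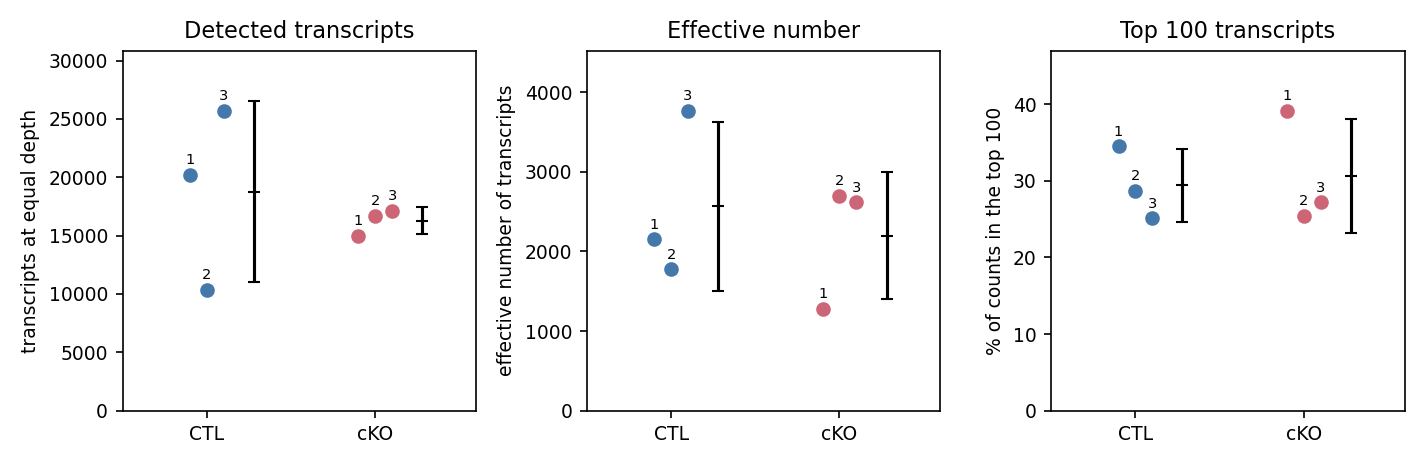
Detected transcripts at equal depth, effective number of transcripts and percent of counts in the 100 most abundant transcripts, for the 3 CTL and 3 cKO libraries after hCG (points, numbered by replicate) with mean and SD beside them. The CTL libraries run from 10371 to 25699 detected transcripts and enclose the 3 cKO libraries, and cKO replicate 1 has the lowest effective number and the highest share in the top 100.

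The libraries also differed in which transcripts they held, within a genotype and between genotypes. A level of at least 1 CPM (rounded counts of each library, brought to a common total) was reached by 36162 transcripts in some library and by 1467 in all 6. Among the 6691 transcripts that reached 100 CPM in at least 1 library, 4459 (66.6%) did so in a single library, 152 (2.27%) did so in all 6, and 4834 (72.2%) had no count at all in at least 1 library. Even of the 404 transcripts that reached 1000 CPM somewhere, 131 (32.4%) stood at 0 in another library. Among the 6691, 35 had at least 1 CPM in all 3 cKO libraries and in no CTL library, and 80 had it in all 3 CTL libraries and in no cKO library. Of the others found in exactly 3 libraries, 508 were in 1 CTL and 2 cKO libraries and 605 in 2 CTL and 1 cKO library. Clean splits also arise among 3 libraries taken without regard to genotype, so these counts alone do not show an effect. A further 705 were found in exactly 1 library of each genotype and 1232 in all 6. The lists of the 100 most abundant transcripts of each library added up to 312 transcripts, of which 185 (59.3%) were in 1 list only, 27 were in all 3 CTL lists, 29 in all 3 cKO lists and 12 in all 6.

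**Figure D2:**
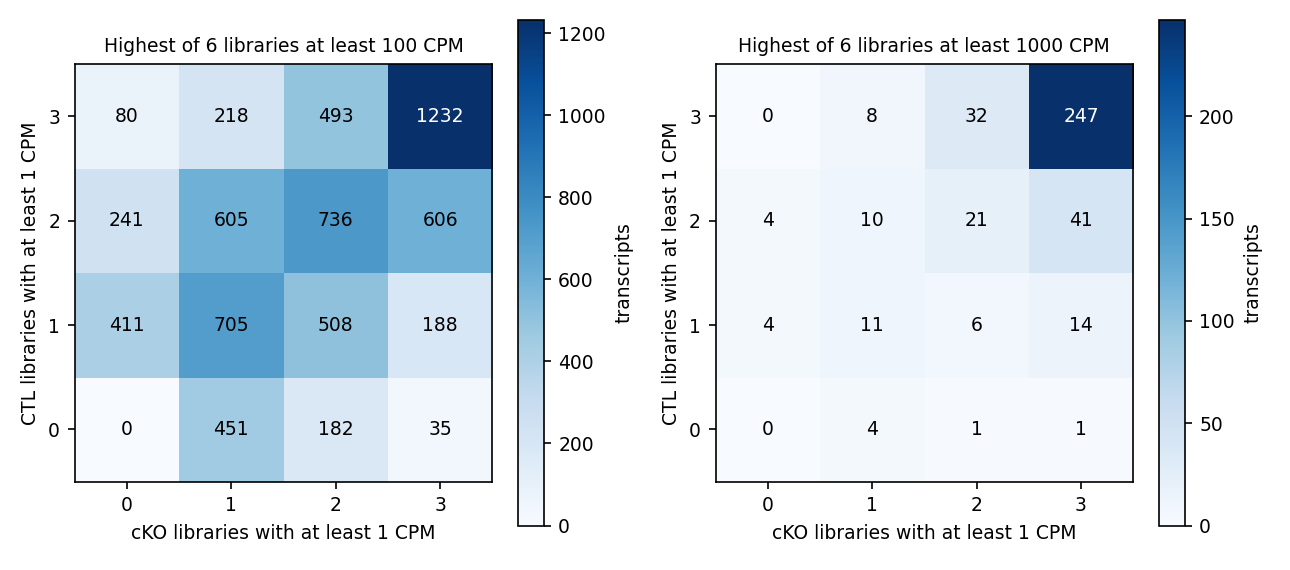
Number of transcripts by how many CTL libraries (vertical) and how many cKO libraries (horizontal) held at least 1 CPM, for transcripts whose highest library after hCG reached at least 100 CPM (left) or 1000 CPM (right). Most of the 404 most abundant ones lie in the upper right corner (247 in all 6 libraries), whereas the corners that separate the genotypes hold 80 and 35 on the left and 0 and 1 on the right.

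For 14053 transcripts averaging 10 CPM or more across the 12 libraries, Pearson's r of log2(CPM + 1) ran from 0.228 to 0.291 between CTL libraries and from 0.248 to 0.283 between cKO libraries. Between a CTL and a cKO library it ran from 0.21 to 0.396. The highest r of all 15 pairs was that of CTL replicate 3 with cKO replicate 2, of different genotypes. These correlations are across transcripts, which are not independent replicates, and the libraries also differ in how many transcripts they hold. CTL replicate 1 correlated with replicate 1 of CTL and of cKO before hCG at 0.383 and 0.404, and with the other 9 libraries at 0.199 to 0.291. These 3 libraries are called below the ones that stand apart. Resemblance to libraries before hCG was not particular to CTL replicate 1. CTL replicate 3 correlated with replicates 2 and 3 of both genotypes before hCG at 0.355 to 0.436. With the replicate 1 libraries before hCG, the cKO libraries after hCG correlated at 0.0918 to 0.183. CTL replicates 2 and 3 after hCG lay in that range, at 0.114 to 0.158. With replicates 2 and 3 of both genotypes before hCG, the cKO libraries correlated at 0.247 to 0.317 and CTL replicate 2 at 0.159 to 0.191.

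The effect of losing LRH-1 after hCG was tested with edgeR's quasi-likelihood test in a model of all 12 libraries. At a Benjamini-Hochberg adjusted p under 0.05, 1 transcript was higher in cKO (0.00304% of those tested) and 2 were lower (0.00607%), together 0.00911%. At an unadjusted p under 0.05, 2370 were higher (7.19%) and 3229 were lower (9.8%), together 17.0%. In many of these, 1 library decided the difference: the highest library of the higher group held over 90% of that group's signal in 75.4% of those higher in cKO, in 71% of those lower, and in 60.9% of all transcripts tested. In 483 transcripts (1.47% of those tested) the lowest cKO library lay above the highest CTL library, and in 962 (2.92%) the highest cKO library lay below the lowest CTL library. Their median lengths were 2358 and 2729 bases, against 2120.5 bases for all tested.

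All 3 transcripts that passed overlapped between the genotypes through libraries at 0, and the rule for naming transcripts asked for groups that do not overlap; they are therefore named after their values were seen. ENSMUST00000061352 (1502 bases) stood at 2378, 0 and 7.03 CPM in CTL and at 0 in all 3 cKO libraries. CTL replicate 1 thus held 99.7% of it, and CTL replicate 2 could not be told from cKO. It fell to 0 from a CTL mean of 795 ± 1371 CPM (SD, n = 3), at least 16553-fold lower against a floor of 3 counts over the cKO libraries (edgeR adjusted p = 0.0213). Without CTL replicate 1 it was at least 73.2-fold lower and not called (edgeR adjusted p = 0.503).

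ENSMUST00000224702 (2150 bases) stood at 905, 0 and 0 CPM in CTL and at 0 in all 3 cKO libraries (edgeR adjusted p = 0.0464). A single CTL library therefore separated it from cKO, by at least 6280-fold over the group means, and without that library both genotypes stood at 0. Both transcripts that fell were also high in the 2 libraries before hCG that resembled CTL replicate 1: ENSMUST00000061352 held 498 CPM in the CTL library and 804 CPM in the cKO library, and ENSMUST00000224702 held 1835 and 923 CPM in them. In the other 9 libraries neither exceeded 7.03 CPM. They were among 195 transcripts with at least 10 CPM in each of the 3 libraries that stand apart and less in each of the other 9. In a fit with an indicator for these 3 libraries, neither was called: the log2 fold change of ENSMUST00000061352 was -8.05 (edgeR adjusted p = 0.252) in place of -16.84, and that of ENSMUST00000224702 was -3.83 (edgeR adjusted p = 0.462) in place of -15.44. The 3 libraries were chosen from these same data, and CTL replicate 1 among them held 99.7% and 100% of the CTL signal of these transcripts. The indicator takes up that signal, so this fit could hardly call them and does not test why they were high there. When the 3 libraries were left out, edgeR called 1 transcript higher and 0 lower, and none was one of the 3 named here (751 higher and 1481 lower at an unadjusted p under 0.05).

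ENSMUST00000209056 (458 bases) was the transcript that rose. It stood at 0 in all 3 CTL libraries and at 1388, 0 and 0.0421 CPM in cKO, at least 7227-fold higher in the mean against a floor of 3 counts over the CTL libraries (edgeR adjusted p = 0.0464). Only cKO replicate 1 separated it from CTL, since the 0.0421 CPM of replicate 3 is 1 count. Without cKO replicate 1 both genotypes lay at or under the floor, and it was not called (edgeR adjusted p = 0.744).

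Leaving out single libraries changed the number of calls in every case. Without CTL replicate 1 edgeR called 0 higher and 0 lower (1112 and 2230 at an unadjusted p under 0.05), and without cKO replicate 3 likewise 0 and 0 (1995 and 1115). It called 3 higher and 4 lower without CTL replicate 2, 5 and 3 without CTL replicate 3, 1 and 0 without cKO replicate 1, and 2 and 0 without cKO replicate 2. With the replicate number of the files as a block, or with an indicator for the 3 libraries that stand apart, edgeR called 4 higher and 0 lower, and 4 higher and 1 lower, and none of the 3 original calls was among them. Of these 3, 2 were among those without CTL replicate 2, 2 among those without CTL replicate 3, 1 among those without cKO replicate 2 and 0 when any 1 of the other 3 libraries was left out.

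By the naming rule, the transcripts with the smallest p among those whose libraries did not overlap and whose higher group averaged 5 CPM or more were taken (390 were higher and 812 lower in cKO). None passed the adjusted threshold. ENSMUST00000210643 (1392 bases) stood at 626, 487 and 20.5 CPM in CTL and at 0 in all 3 cKO libraries. It was spread over the libraries more evenly than the other 3, with 55.2% of the CTL signal in the highest library and a mean of 254 CPM in the remaining CTL libraries. The cKO minus CTL difference was -7.34 on the log2(TPM + 1) scale (SE 1.63, limma, 95% interval -10.73 to -3.95; limma adjusted p = 0.974, edgeR adjusted p = 0.176). ENSMUST00000149154 (10289 bases) stood at 1344, 0.125 and 0.399 CPM in CTL and at 0 in cKO (edgeR adjusted p = 0.128), again with nearly all of it in CTL replicate 1.

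On the other side, ENSMUST00000225269 (783 bases) stood at 0 in all 3 CTL libraries and at 691, 1.18 and 187 CPM in cKO. Replicates 1 and 3 of cKO were clearly above CTL and replicate 2 barely so, with a difference of 6.65 on the log2(TPM + 1) scale (SE 1.96, limma, 95% interval 2.59 to 10.70; limma adjusted p = 1, edgeR adjusted p = 0.101). ENSMUST00000111136 (4211 bases) stood at 0 in CTL and at 687, 14.8 and 1.35 CPM in cKO (edgeR adjusted p = 0.101). Before hCG both were found in libraries of both genotypes. ENSMUST00000225269 then had 24, 11.7 and 60.3 CPM in the CTL libraries and 13.4, 245 and 43.7 CPM in the cKO libraries, so its absence from CTL was seen after hCG alone.

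**Figure D3:**
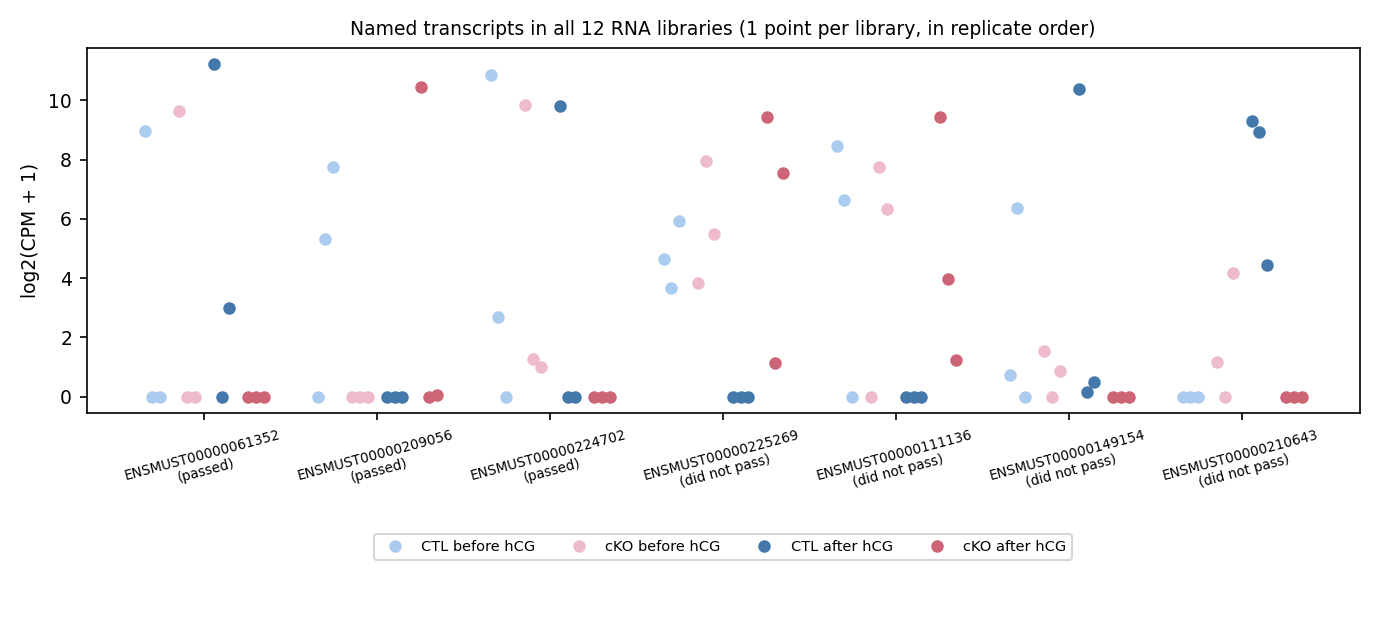
Levels, as log2(CPM + 1), of the 3 transcripts that passed the threshold and the 4 that did not pass but had groups that do not overlap, in all 12 RNA libraries, 1 point per library. Each of the 3 that passed has a single high library in one genotype after hCG, while ENSMUST00000210643 has 2 CTL libraries at 626 and 487 CPM and all cKO libraries at 0.

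The precision behind these tests depended on abundance. In transcripts with a mean of 10 to 100 CPM over the 12 libraries (11963 tested), 85.9% stood at 0 in at least 1 of the 6 libraries, the median SD within a genotype was 2.49 on the log2(CPM + 1) scale, and the median size of the cKO minus CTL difference was 1.43. In those of 100 to 1000 CPM (1437 tested) the values were 38.7%, 2.66 and 1.49. Only above 1000 CPM (82 transcripts) did zeros become rare, at 6.1%, with an SD of 1.43 and a difference of 1.03. In every class of abundance the median difference was below the median SD. The difference is between means of 3 libraries and the SD is that of single libraries. Their order therefore does not show whether LRH-1 loss had an effect. Over all transcripts tested, the 95% interval of a difference reached a median of 3.04 to either side on the log2(TPM + 1) scale in limma, which is 8.24-fold on that scale. The median was 11.5-fold at 10 to 100 CPM and 13.4-fold at 100 to 1000 CPM. Effects of LRH-1 loss smaller than these intervals would mostly be missed for the typical transcript. The intervals are not adjusted for the number of tests, so larger effects could miss the threshold too. ENSMUST00000210643, with a limma difference of -7.34, had a limma adjusted p of 0.974. A p that misses the threshold does not show that the genotypes were alike.

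**Figure D4:**
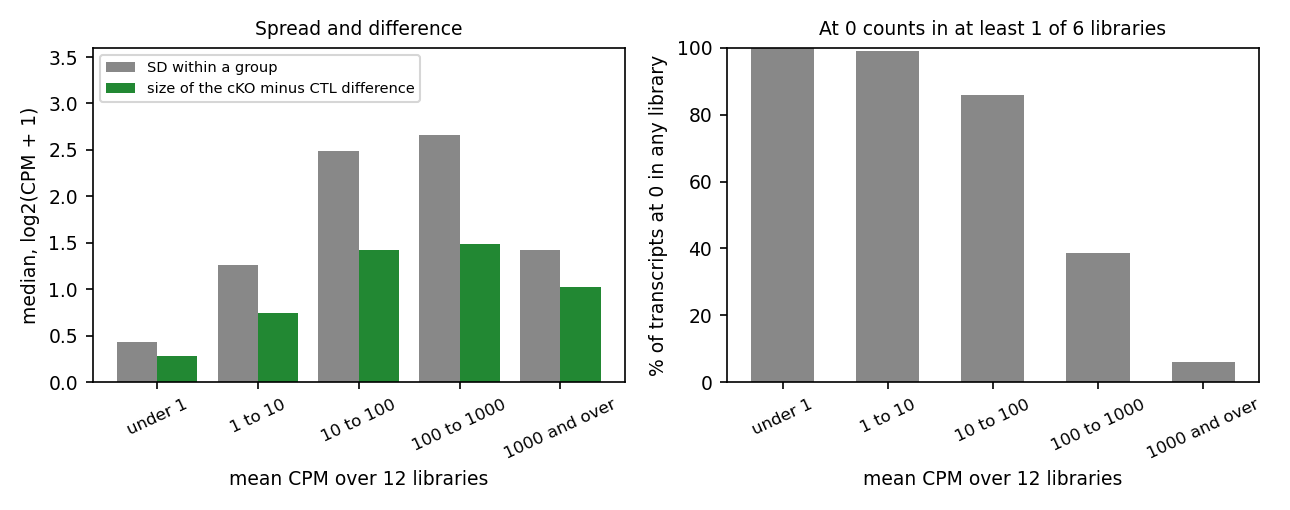
Left, the median SD within a genotype and the median size of the cKO minus CTL difference after hCG, both as log2(CPM + 1), by mean abundance over the 12 RNA libraries. Right, the percent of transcripts at 0 counts in at least 1 of the 6 libraries. The spread exceeds the difference in all 5 classes, and as a ratio it does so least in the 82 transcripts above 1000 CPM. The spread is that of single libraries and the difference is between means of 3, so their order does not show whether there is an effect.

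The transcripts with the highest and the next highest mean were found in every library of both genotypes. ENSMUST00000024739 (2520 bases), the highest mean of the 6 libraries, stood at 17823, 21675 and 8873 CPM in CTL and at 36382, 15797 and 12731 CPM in cKO. It was the first transcript of all 3 cKO libraries and of CTL replicate 2, and the groups overlapped (difference 0.32 on the log2(TPM + 1) scale, SE 0.78, limma, 95% interval -1.29 to 1.92; edgeR adjusted p = 0.49). ENSMUST00000217116 (3756 bases), the next highest, stood at 9660, 13309 and 35940 CPM in CTL and at 14915, 3446 and 8423 CPM in cKO, also overlapping (edgeR adjusted p = 0.772). Among the 82 transcripts above 1000 CPM, 5 had all cKO libraries above all CTL libraries, by 2.88-fold to 6.08-fold in the mean, and 4 had all of them below, by 3.36-fold to 22.3-fold. That is 11% of the 82. The share was 10.4% at 100 to 1000 CPM and 4.39% over all tested, where libraries at 0 in both genotypes leave no room for such a separation. Full separation of 3 libraries from 3 has an exact two-sided permutation p of 0.1 where no values tie. Libraries at 0 in both genotypes are ties, so the share that would arise without any effect is lower where they occur, and it was not computed. Whether shares of 11% and 10.4% differ from it was not tested, and these shares alone do not show an effect. None of these 9 passed the threshold (smallest edgeR adjusted p = 0.294).

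Whether the effect of LRH-1 loss after hCG was other than that before it was tested as an interaction in the same model, and 11 transcripts passed (0.0334% of those tested), 7 with a higher and 4 with a lower cKO effect after hCG. Of the 11, 2 were also called after hCG. All 11 had at least 1 of the 4 groups below 1 CPM in every library, and each reached 10 CPM in no more than 7 of the 12 libraries. ENSMUST00000209056 had the smallest p (edgeR interaction adjusted p = 2.05e-05). Before hCG it stood at 0, 38.7 and 213 CPM in CTL and at 0 in all 3 cKO libraries, the reverse of its state after hCG. ENSMUST00000210643 (edgeR interaction adjusted p = 0.0108) stood before hCG at 0 in all 3 CTL libraries and at 1.24, 0 and 16.9 CPM in cKO, so that its presence in CTL and absence in cKO was seen after hCG alone.

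The number of transcripts called depended on the tool. DESeq2, which the submitters' processing notes also list, called 1583 transcripts higher and 2294 lower in cKO. Together these were 3877, or 11.8% of the 32944 given to it, of which 8711 received no adjusted p. In 3266 of these 3877 (84.2%) all 3 libraries of 1 genotype stood at 0, and in 3784 (97.6%) all 3 stood below 1 CPM. The matching shares over all transcripts tested were not computed, so these traits cannot be called particular to the DESeq2 calls. The libraries of the genotypes did not overlap in 569 of the 3877 (14.7%), against 4.39% of all transcripts tested. None of the 3877 was one of the 3 calls of edgeR. DESeq2 gave these 3 neither a p nor an adjusted p, so it did not test them. ENSMUST00000225269, ENSMUST00000111136 and ENSMUST00000210643 passed in DESeq2 (adjusted p = 7.92e-08, 7.13e-05 and 2.86e-05). Limma on log2(TPM + 1) called 0 higher and 0 lower (440 and 693 at an unadjusted p under 0.05).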

How the data were processed

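Per the submitters' processing notes, Trimmomatic, TopHat2 2.0.12, kallisto, DESeq2 and mm9 were used, with no role or order given. Per the file headers, the deposited tables give estimated counts, TPM and length per transcript, 1 table per library; replicate numbers come from the files. In R 4.3.3, estimated counts were rounded, and edgeR 4.0.16 kept 32944 of 110473 transcripts with filterByExpr (94.4% to 97.5% of counts per library), scaled them by TMM (factors 0.544 to 1.15 after hCG), fitted 4 groups and tested contrasts with glmQLFTest and Benjamini-Hochberg adjustment. The biological coefficient of variation was 243%. Limma 3.58.1 used log2(TPM + 1). Its fold changes understate the changes of low transcripts. DESeq2 1.42.0 was an alternative. Detection is the expected number of transcripts after thinning to 12517554 counts. Depth sets counting error, not the spread between libraries. Floors cover counting error only. Library measures were tested in Python 3.11.15 with scipy 1.17.1.

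Members, lists and tests were chosen with earlier results of these data known. Named were the 2 transcripts per direction with the smallest p among those with groups that do not overlap and at least 5 CPM in the higher group. Gene lists, markers and promoters were not used, because 0 transcript identifiers matched a gene. Alternatives were other scaling, filters, fits and tools, a replicate block, and leaving out libraries.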

Additional observations from a re-analysis of the deposited data

Results flagged for a closer look

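The effect of LRH-1 loss differed between the times, by edgeR's interaction test, in 11 transcripts. ENSMUST00000209056 was present only in CTL before hCG and, but for 1 library, absent after it, 1 count in cKO replicate 3 aside (interaction adjusted p = 2.05e-05). ENSMUST00000061352 was high in replicate 1 of both genotypes before hCG and in replicate 1 of CTL alone after it (interaction adjusted p = 0.0139). ENSMUST00000210643 was found after hCG in all 3 CTL libraries and in no cKO library (interaction adjusted p = 0.0108).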

How the results depend on the processing

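The calls of edgeR in cKO against CTL after hCG (1 higher, 2 lower) were not called again under most alternatives. Of the 11 interaction calls (7 higher, 4 lower), 9 were called again with RLE factors, 7 in DESeq2, 6 with the indicator for the 3 libraries that stand apart and 5 with a replicate block. A robust fit kept 2, and upper-quartile factors, a mean of at least 10 CPM and limma kept none. After hCG, higher and lower calls were 1 and 1 with RLE factors, 1 and 0 without a filter, 4 and 0 with a replicate block, 4 and 1 with an indicator for the 3 libraries that stand apart, 1 and 0 without those libraries, and 1583 and 2294 in DESeq2. They were 0 and 0 with upper-quartile factors, a mean of at least 10 CPM, a robust fit, the 6 libraries alone, and limma with a pseudocount of 1 or 0.1; in these, 6102, 2144, 5919, 397, 1133 and 1294 transcripts had an unadjusted p under 0.05. Interaction calls were 0 and 0 with upper-quartile factors, 10 CPM and limma (5167, 1527 and, by pseudocount, 1348 or 1640 at an unadjusted p under 0.05), 1 and 1 with a robust fit, 4 and 4 with the indicator, 5 and 2 without the 3 libraries, 5 and 4 with RLE factors, 5 and 3 without a filter, 8 and 3 with the block and 1385 and 2108 in DESeq2. Leaving out 1 library at a time gave 0 to 5 higher and 0 to 4 lower calls after hCG, and 2 to 7 and 1 to 7 for the interaction. It moved the cKO minus CTL difference from -6693 to 970.7 in detected transcripts, from -763.1 to 233.9 in effective number, from -3.098 to 3.75 percentage points in the top 100 and from -126.1 to 241.9 bases in length. With TPM the top 100 difference was -0.447. The cause was not tested. Upper-quartile factors, by their mean over the libraries, shift log2 fold changes by -0.78 against TMM. The median log2 fold change over the transcripts tested moved only from 0 to -0.08, and many of these stand at 0 in some libraries. ENSMUST00000224702 has no fold without CTL replicate 1, as both genotypes were at 0. After hCG the replicate numbers of the files did not pair CTL with cKO: deviations of same-numbered libraries from their group means correlated at 0.0131, -0.0208 and -0.0322. Before hCG they did so at 0.303, 0.103 and 0.124, and CTL replicate 1 after hCG correlated with replicate 1 of CTL and cKO before it at 0.205 and 0.235. The values for CTL replicate 2 after hCG with replicate 2 before it were 0.0214 and 0.0355. Those for replicate 3 were 0.15 and 0.134. Alternatives on genes were not run, as no transcript was matched to a gene.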
